A study of Mus musculus with 8 samples.

Results

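Expression of 8 genes known from dendritic cells was examined in CD11b+Gr-1hi and CD11b+Gr-1lo myeloid cells of sanroque mice. The 8 genes were Zbtb46, Xcr1, Batf3, Cd209a, Siglech, Dnase1l3, Bcl11a and Ccr7. They were found by symbol in a table of 54188 genes, and all 8 were among the 17650 genes that passed the filter on low counts and were tested.

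The study compared myeloid cells that gather in the spleen (SP) of these lupus-prone mice with cells of the same surface phenotype in bone marrow (BM). Sanroque mice carry the san allele of Roquin, a protein that represses certain mRNAs, on a C57BL/6 background. Every library came from homozygous Roquin(san/san) mice, labelled female and 20 weeks old, so the allele was shared by all 4 groups and no comparison here tests it. Cells were sorted on CD11b (written CD11 in the labels) and Gr-1, an epitope of Ly6G and Ly6C proteins. Libraries 5 and 6 were SP Gr-1hi, libraries 7 and 8 SP Gr-1lo, libraries 9 and 10 BM Gr-1hi and libraries 11 and 12 BM Gr-1lo. The labels call Gr-1hi cells G-MDSC and Gr-1lo cells M-MDSC, for granulocytic and monocytic myeloid-derived suppressor cells. The 2 libraries of a group are described as independent biological replicates, but the sources do not tie libraries to individual mice, so p-values measure the spread between these libraries. Libraries of wild-type mice were not analysed here.

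The deposited values were read counts per gene, between 33453580 and 68316154 per library. Levels are given as counts scaled to library size (CPM) after TMM scaling, which corrects each library for its composition. Where a gene had no count, a level of up to 3 counts could have been missed, which was 0.0348 to 0.124 CPM depending on the library when only counting error is considered. The sorted subsets carried their markers, since Ly6g, which encodes Ly6G, lay between 330 and 801 CPM in the Gr-1hi libraries and between 3.07 and 8.23 CPM in the Gr-1lo libraries. Itgam, which encodes CD11b, was at least 734 CPM in each library. Csf1r, the M-CSF receptor of monocytes and macrophages, was between 436 and 754 CPM in Gr-1lo and between 133 and 375 CPM in Gr-1hi libraries. Most libraries went against the label of sex, female. The X-linked transcript Xist was counted 12032 times for library 5 and 9898 times for library 7, with no more than 5 counts elsewhere, while the Y-linked Ddx3y had 0 counts in library 5 and 33.7 to 82.6 CPM in the other 7 libraries, library 7 included. Comparisons that use SP libraries are therefore also given without libraries 5 and 7. That leaves 1 library in each SP group, which is assumed to vary like the others.

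Dendritic cells take up antigen and present it to T cells. Conventional dendritic cells need the growth factor Flt3 ligand and express the transcription factor Zbtb46. They divide into type 1 cells, which depend on Batf3 and Irf8 and cross-present antigen to CD8 T cells, and type 2 cells, which depend on Irf4 and many of which carry CD11b. Plasmacytoid dendritic cells sense nucleic acids and secrete type I interferon. Maturing dendritic cells acquire Ccr7 and migrate to T cell areas. In lupus, Dnase1l3 is known as a secreted DNase that digests DNA in apoptotic microparticles. Several of the 8 genes have other known sites of expression, as Bcl11a is also a B cell factor and Ccr7 is carried by naive lymphocytes.

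Upstream sequences are shown for 3 of the genes because their transcripts differed in pattern: Xcr1 was nearly absent from marrow, Bcl11a varied with both tissue and subset, and Siglech alone was called lower in the spleen. The RefSeq promoter table held 6 of the 8 genes, without Dnase1l3 and Ccr7. Each sequence is the 250 bases before the start that RefSeq gives, read 5′ to 3′ on the strand of the gene (GRCm38.p6). The RefSeq starts of Bcl11a, Batf3, Siglech and Zbtb46 lie inside the wider gene spans of GENCODE given with the levels, so other transcripts of these genes start further upstream. The last bases of the Bcl11a and Siglech windows fall in an exon of such a transcript. The Batf3 window overlaps exons of other Batf3 transcripts over a longer stretch and is not printed. The motifs searched on both strands, with matches in capitals, were TGANTCA (bound by AP-1 proteins, the class of Batf3), a pair of GAAA with 2 bases between (interferon regulatory factors), GAGGAA (PU.1) and CACCTG (E proteins). The Xcr1 sequence is chr9:123862030-123862279 (minus strand), the Bcl11a sequence chr11:24080445-24080694 (plus strand) and the Siglech sequence chr7:55767934-55768183 (plus strand).
Xcr1: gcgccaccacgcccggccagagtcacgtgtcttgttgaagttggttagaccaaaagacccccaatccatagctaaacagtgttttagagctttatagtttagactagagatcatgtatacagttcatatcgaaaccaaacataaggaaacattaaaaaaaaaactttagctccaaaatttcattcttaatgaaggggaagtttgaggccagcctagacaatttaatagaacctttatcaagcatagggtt
Bcl11a: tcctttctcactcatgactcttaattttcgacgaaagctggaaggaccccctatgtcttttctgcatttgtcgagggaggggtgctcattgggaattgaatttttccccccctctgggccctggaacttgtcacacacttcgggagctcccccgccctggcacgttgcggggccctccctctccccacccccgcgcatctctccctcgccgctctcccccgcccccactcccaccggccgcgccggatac
Siglech: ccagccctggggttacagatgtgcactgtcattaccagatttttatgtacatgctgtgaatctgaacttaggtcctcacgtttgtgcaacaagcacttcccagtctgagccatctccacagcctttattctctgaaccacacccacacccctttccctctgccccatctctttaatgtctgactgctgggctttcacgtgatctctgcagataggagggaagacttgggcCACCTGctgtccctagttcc
The Batf3 window held 1 GAGGAA, that of Siglech 1 CACCTG and that of Zbtb46, also not printed, 1 TGANTCA and 1 CACCTG. The Xcr1, Bcl11a and Cd209a windows held no match to any of the 4 motifs. Of 32851 promoter windows of the same length, 6.749% held TGANTCA, 2.977% the GAAA pair, 23.25% GAGGAA and 17.22% CACCTG. No matches overlapped each other. These are matches of letters only, and the counts say nothing about binding.

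Zbtb46, the factor shared by conventional dendritic cells, was close to the counting limit in most libraries. Its levels were 1.21 and 0.638 CPM in SP Gr-1hi, 0.274 and 0.348 in SP Gr-1lo, 0 and 0.330 in BM Gr-1hi and 0.0819 and 0.0756 in BM Gr-1lo. The SP Gr-1hi libraries lay above all others, and those of SP Gr-1lo and BM Gr-1hi overlapped. The gene (ENSMUSG00000027583) spans chromosome 2 of GRCm38 from 181387762 to 181459426.

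Xcr1, the chemokine receptor that marks type 1 dendritic cells, was nearly absent from marrow. It was at 2.56 and 2.55 CPM in SP Gr-1hi, 0.485 and 0.753 in SP Gr-1lo, 0.0374 and 0 in BM Gr-1hi and 0.0205 and 0 in BM Gr-1lo. In counts these were 85 and 80, 23 and 65, 1 and 0, and 1 and 0. The spleen groups did not overlap each other or the marrow groups, while the 2 marrow groups could not be separated at this depth. Xcr1 (ENSMUSG00000060509) lies on chromosome 9 from 123852315 to 123862029.

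Batf3, the factor on which type 1 dendritic cells depend, was higher in the Gr-1lo than in the Gr-1hi libraries of each tissue. It was at 1.21 and 1.34 CPM in SP Gr-1hi, 2.72 and 2.70 in SP Gr-1lo, 0.0374 and 0.124 in BM Gr-1hi and 0.799 and 0.831 in BM Gr-1lo. No 2 groups overlapped, and replicates within SP Gr-1lo and BM Gr-1lo differed by little. Batf3 (ENSMUSG00000026630) spans chromosome 1 from 191097847 to 191108945.

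Cd209a, a C-type lectin of type 2 and monocyte-derived dendritic cells, was low in each group. Its levels were 0.332 and 0.191 CPM in SP Gr-1hi, 0.211 and 0.0348 in SP Gr-1lo, 0.112 and 0 in BM Gr-1hi and 0.246 and 0.151 in BM Gr-1lo. These rest on at most 12 counts per library, and each group overlapped the next in the order of the means. Cd209a (ENSMUSG00000031494) is on chromosome 8 from 3743397 to 3748984.

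Siglech, a surface lectin of plasmacytoid dendritic cells, was the only 1 of the 8 genes with its highest mean in BM Gr-1hi cells. It was at 0.422 and 0.319 CPM in SP Gr-1hi, 0.232 and 0.406 in SP Gr-1lo, 0.935 and 1.32 in BM Gr-1hi and 0.471 and 0.642 in BM Gr-1lo. The spleen groups overlapped, and both lay below the marrow groups. Siglech (ENSMUSG00000051504) spans chromosome 7 from 55768178 to 55778925.

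Dnase1l3, a secreted DNase of plasmacytoid and other dendritic cells and of some macrophages, divided the libraries by tissue. Its levels were 16.8 and 13.4 CPM in SP Gr-1hi, 8.80 and 20.3 in SP Gr-1lo, 0.523 and 0.784 in BM Gr-1hi and 0.389 and 0.680 in BM Gr-1lo. The lowest spleen library was more than 10 times the highest marrow library, and within each tissue the Gr-1 subsets overlapped. The 2 SP Gr-1lo libraries differed by more than 2-fold, which was the widest gap among the groups of this gene. Dnase1l3 (ENSMUSG00000025279) lies on chromosome 14 from 7964533 to 7994573.

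Bcl11a, a zinc finger factor needed by plasmacytoid dendritic cells and B cells, was lower in BM Gr-1hi than in the other 3 groups. It was at 17.4 and 13.7 CPM in SP Gr-1hi, 21.8 and 23.3 in SP Gr-1lo, 5.12 and 5.24 in BM Gr-1hi and 26.2 and 28.8 in BM Gr-1lo. No 2 groups overlapped. Bcl11a (ENSMUSG00000000861) spans chromosome 11 from 24078056 to 24174123, and its exons overlap those of 4930538E20Rik on the other strand. The libraries were stranded, but the strand setting of the counting was not given in the sources used here apart from a file label, so reads of these 2 genes may not have been kept apart.

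Ccr7, the receptor that guides mature dendritic cells and naive lymphocytes, was ordered without overlap over the 4 groups. It was at 6.78 and 4.08 CPM in SP Gr-1hi, 1.12 and 2.04 in SP Gr-1lo, 0.15 and 0.165 in BM Gr-1hi and at 0 counts in both BM Gr-1lo libraries. SP Gr-1hi was highest, followed by SP Gr-1lo and BM Gr-1hi. Ccr7 (ENSMUSG00000037944) is on chromosome 11 from 99144196 to 99155077.

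**Figure D1:**
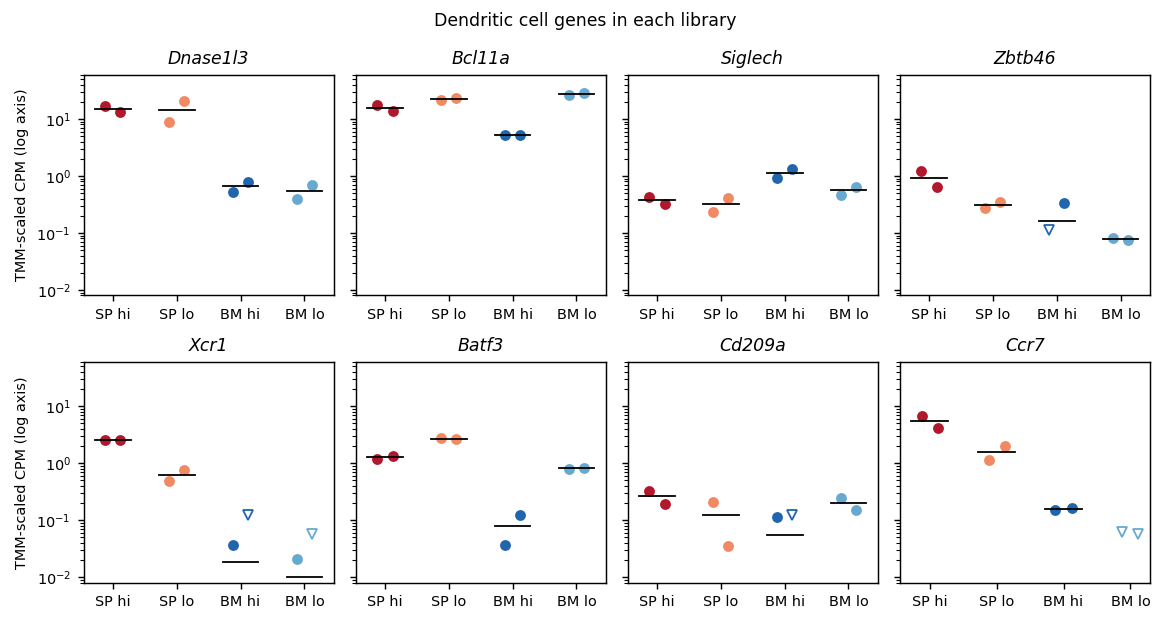
Level of each of the 8 genes in each library as TMM-scaled CPM on a log axis, with 2 points per group, a line at the group mean and, for a count of 0, an open triangle at the level of 3 counts. Dnase1l3 was between 8.80 and 20.3 CPM in the 4 SP libraries and at most 0.784 CPM in the 4 BM libraries, while Bcl11a was lowest in BM Gr-1hi (5.12 and 5.24 CPM).

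Scaled by exon length (TPM), Dnase1l3 had the highest mean of the 8 genes in both spleen groups. In SP Gr-1hi it was at 5.93 ± 1.27 TPM (SD, n = 2), followed by Ccr7 at 5.57 ± 2.25 TPM, a difference smaller than the spread of either gene. In SP Gr-1lo the order was Dnase1l3 at 8.26 ± 4.40 TPM, Bcl11a at 5.05 ± 0.102 TPM and Batf3 at 5.01 ± 0.176 TPM. The libraries of Bcl11a and Batf3 overlapped, and both of Dnase1l3 lay above them, the lower one by little. Marrow had another order, with Bcl11a first in both subsets at 6.42 ± 0.337 TPM in BM Gr-1lo and 0.658 ± 0.0128 TPM in BM Gr-1hi. In BM Gr-1lo, Batf3 followed at 1.57 ± 0.0234 TPM. Zbtb46, Cd209a and Siglech had a mean of at most 0.556 TPM in each group.

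In Gr-1lo cells, Xcr1, Batf3, Dnase1l3 and Ccr7 rose from marrow to spleen and none of the 8 genes fell. A gene was called at a Benjamini-Hochberg adjusted p of at most 0.05 in edgeR's quasi-likelihood test and a fold change (FC) of at least 2. Of all genes tested 4.06% were called, 3.84% higher and 0.215% lower in SP. By median, the 8 genes had a log2 FC of 1.85 and all genes one of -0.01. In 5 of the 8 both SP libraries lay above both BM libraries (27.1% of all genes) and in 2 below (32.5%). A stricter rule that asked for adjusted p under 0.01 plus an FC over 8 called 3 of the 8 and 1.26% of all genes. For Dnase1l3 the log2 FC was 4.76 (SE 0.47, edgeR quasi-likelihood adjusted p = 0.00115), from 0.535 ± 0.206 to 14.5 ± 8.11 CPM (SD, n = 2). Batf3 rose by 1.73 on the same scale (SE 0.28, edgeR adjusted p = 0.00843). Xcr1 had 1 count in BM Gr-1lo and 88 in SP Gr-1lo, and a log2 ratio of 6.07 between scaled counts with an exact 95% counting interval of 3.55 to 11.39 (edgeR adjusted p = 0.00343). Ccr7, at 0 counts in BM Gr-1lo, was 58.1-fold higher in SP when 3 counts were assumed for that group and the SP counts taken as exact (edgeR adjusted p = 0.00169). Bcl11a was not called, with a log2 FC of -0.29 (SE 0.13) and a 95% interval of -0.58 to 0.01. Siglech had -0.75 (SE 0.41), Zbtb46 1.97 (SE 0.87) and Cd209a -0.88 (SE 0.88), none of which was called. Without libraries 5 and 7 the count was also 4, with log2 FCs of 5.22 for Dnase1l3 and 1.71 for Batf3. The call of Batf3 was lost without library 8, 11 or 12 (edgeR adjusted p between 0.0651 and 0.0742). In limma its difference of log2(TPM + 1) was 0.999 and was not called, on a scale that shrinks changes at low TPM.

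In Gr-1hi cells, 5 of the 8 genes rose from marrow to spleen, namely Xcr1, Batf3, Dnase1l3, Bcl11a and Ccr7, and Siglech fell. By the same rule 15.5% of all genes tested were called, 14.0% higher and 1.48% lower in SP. The 8 genes had a median log2 FC of 3.24, and all genes one of 0.03. In 7 of the 8 both SP libraries lay above both BM libraries (35.9% of all genes), and in 1, Siglech, below (31.9%). The stricter rule called 4 of the 8 and 3.54% of all genes. Dnase1l3 rose from 0.654 ± 0.185 to 15.1 ± 2.40 CPM (SD, n = 2), a log2 FC of 4.54 (SE 0.50, edgeR quasi-likelihood adjusted p = 0.000678). Ccr7 rose by 5.09 (SE 0.54, edgeR adjusted p = 0.000698) and Batf3 by 3.97 (SE 0.46, edgeR adjusted p = 0.000673). With 1 count in BM Gr-1hi and 165 in SP Gr-1hi, Xcr1 had a log2 ratio of 7.03 and a counting interval of 4.53 to 12.34 (edgeR adjusted p = 0.000430). Bcl11a, which was not called in Gr-1lo cells, rose by a log2 FC of 1.58 (SE 0.15, edgeR adjusted p = 0.000281). In limma its difference of log2(TPM + 1) was 0.81 and was not called, on a scale that shrinks changes at low TPM. Siglech had a log2 FC of -1.59 (SE 0.44, edgeR adjusted p = 0.0239), from 57 counts in marrow to 24 in spleen. Zbtb46 had a log2 FC of 2.52 (SE 0.85) that narrowly missed the threshold (edgeR adjusted p = 0.0504). It was called under 5 of 15 alternatives, with the lowest edgeR adjusted p of 0.00108 without the filter on low counts. The other 10 did not call it, and without libraries 5 and 7 its log2 FC was 2.00. Cd209a rested on 3 and 17 counts, with a log2 ratio of 2.16 and a counting interval of 0.37 to 4.58. Without libraries 5 and 7 the count was 5, as Siglech was lost (log2 FC -1.79, edgeR adjusted p = 0.0750), and Dnase1l3 had a log2 FC of 4.38. Siglech was also lost without library 5, 6 or 10 (edgeR adjusted p between 0.0505 and 0.0850).

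**Figure D2:**
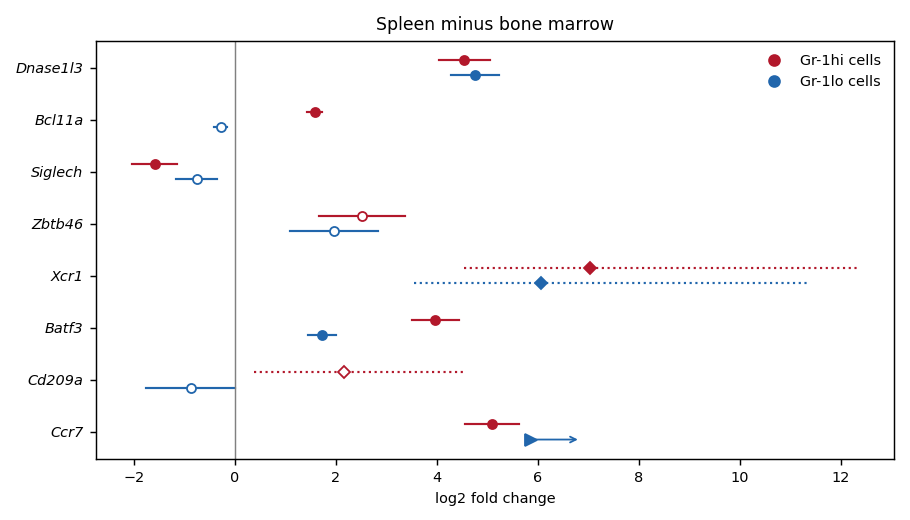
Log2 FC between SP and BM for each of the 8 genes in Gr-1hi (red) and Gr-1lo (blue) cells. Circles are fitted values with their SE. Diamonds are ratios of scaled counts with 95% counting intervals (dotted) where a group had 1 to 3 counts. The triangle with an arrow is Ccr7 with 3 counts assumed for BM Gr-1lo (log2 5.86), and filled symbols were called. Dnase1l3 sat at 4.54 and 4.76 in the 2 subsets, and Bcl11a at 1.58 and -0.29.

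The difference between spleen and marrow was itself different between the subsets for Bcl11a, which rose in Gr-1hi cells and was not called in Gr-1lo cells, and for Batf3, which rose in both. The interaction of tissue and subset, which is the log2 FC between SP and BM in Gr-1hi cells minus that in Gr-1lo cells, was called for 9.74% of all genes tested, 7.74% positive and 2.00% negative, and for 2 of the 8 genes, both positive. By the stricter rule it was called for 0.584% of all genes and 0 of the 8. For Bcl11a it was 1.87 (SE 0.20, edgeR quasi-likelihood adjusted p = 0.00222), and 1.66 without libraries 5 and 7 (edgeR adjusted p = 0.00815). For Batf3 it was 2.24 (SE 0.58, edgeR adjusted p = 0.0353), and that call was lost without library 5, 7, 8, 9, 11 or 12 (edgeR adjusted p between 0.0564 and 0.149) without 5 and 7 together (0.118) and in limma on TPM (0.36 with an adjusted p of 0.282). Dnase1l3 had an interaction of -0.22 with a 95% interval of -1.91 to 1.47 and was not called. The interaction of Ccr7 depended on its 0 counts in BM Gr-1lo and was not called (edgeR adjusted p = 0.149). Zbtb46, Xcr1, Cd209a and Siglech were not called either, with 95% intervals that all held 0 and were at least as wide as that of Siglech (-2.21 to 0.54).

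Between the Gr-1 subsets of the marrow, Bcl11a and Batf3 were lower and Ccr7 and Siglech higher in Gr-1hi cells. Here 57.3% of all genes tested were called, 24.2% higher and 33.1% lower in Gr-1hi, so 4 calls among 8 genes were near the background. All genes had a median log2 FC of -0.17 and the 8 genes one of 0.54. In 2 of the 8 both Gr-1hi libraries lay above both Gr-1lo libraries (40.6% of all genes) and in 3 below (48.2%), and the stricter rule called 1 of the 8 and 16.7% of all genes. Bcl11a had a log2 FC of -2.41 (SE 0.15, edgeR quasi-likelihood adjusted p = 1.11e-06), from 27.5 ± 1.80 CPM in Gr-1lo to 5.18 ± 0.0857 in Gr-1hi (SD, n = 2). Batf3 had -3.33 (SE 0.47, edgeR adjusted p = 0.000207), and its 4 counts in Gr-1hi compared with 83 in Gr-1lo. Ccr7 had 8 counts in Gr-1hi and 0 in Gr-1lo (edgeR adjusted p = 0.0102). It was 5.32-fold higher when 3 counts were assumed for Gr-1lo and the 8 counts taken as exact, so the error of those 8 counts is left out. Siglech was at the threshold with a log2 FC of 1.01 (SE 0.40, edgeR adjusted p = 0.0461) from 57 counts in each group, and on the TPM scale the means were 0.556 ± 0.115 and 0.506 ± 0.104. Its adjusted p ranged from 0.0271 to 0.209 over the alternatives. In limma on log2(TPM + 1), which shrinks changes at low TPM, Batf3 had -0.95 and was not called. Its mean TPM before quantile normalization was 1.57 in Gr-1lo and 0.0833 in Gr-1hi. Ccr7 was not called in limma either (0.34, adjusted p = 0.261). Xcr1, with 1 count in each group, could not be compared, and Dnase1l3 had a log2 FC of 0.27 (SE 0.64) that was not called. Zbtb46, with 8 counts in each group, had 0.99 (SE 1.11), and Cd209a, with 3 counts in Gr-1hi, a log2 ratio of -1.74 and a counting interval of -4.13 to 0.01.

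In the spleen, Xcr1 and Ccr7 were higher and Batf3 lower in Gr-1hi than in Gr-1lo cells. In that comparison 49.6% of all genes tested were called, 22.3% higher and 27.4% lower, which is above the 3 of 8 found here. Both Gr-1hi libraries lay above both Gr-1lo libraries for 3 of the 8 genes (40.6% of all genes) and below for 2 (45.6%), and the stricter rule called 0 of the 8 and 7.37% of all genes. Xcr1 had a log2 FC of 2.01 (SE 0.39, edgeR quasi-likelihood adjusted p = 0.00148) and Ccr7 of 1.76 (SE 0.37, edgeR adjusted p = 0.00338). Batf3, known from the same cell type as Xcr1, had -1.09 (SE 0.27, edgeR adjusted p = 0.00655). Dnase1l3 had a log2 FC of 0.05 (SE 0.36) with a 95% interval of -0.78 to 0.88, so a difference beyond that interval was not seen, although the value was -0.62 without libraries 5 and 7. Bcl11a had -0.54 (SE 0.13, edgeR adjusted p = 0.00587), short of an FC of 2. Zbtb46 with 1.54 (SE 0.67), Cd209a with 1.28 (SE 0.91) and Siglech with 0.17 (SE 0.45) were not called. Without libraries 5 and 7 the count was 1, since Xcr1 was called (log2 FC 1.73, edgeR adjusted p = 0.0300) while Ccr7 (0.98, edgeR adjusted p = 0.0763) and Batf3 (-1.03, edgeR adjusted p = 0.0759) were not. Batf3 was also short of an FC of 2 with RLE scaling (-0.96) and in DESeq2 (-0.96). In limma it was not called (-0.59 on the log2(TPM + 1) scale).

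**Figure D3:**
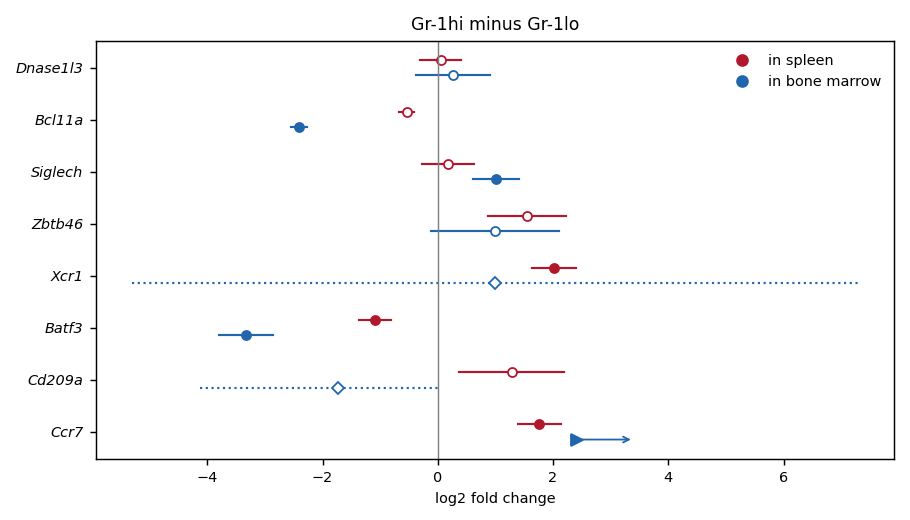
Log2 FC between Gr-1hi and Gr-1lo cells for each of the 8 genes in SP (red) and BM (blue), with circles and SE for fitted values. Diamonds and dotted 95% counting intervals are ratios of counts where a group had 1 to 3. The triangle is Ccr7 in BM with 3 counts assumed for Gr-1lo, and filled symbols were called. Batf3 was below 0 in both tissues (-1.09 and -3.33), and Xcr1 was at 2.01 in SP.

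Other genes known from dendritic cells were followed in 5 lists with 52 genes, of which 47 were tested and none was among the 8. Several are shared with other cells, since Cd74, Ciita and H2-Aa are also expressed by B cells and macrophages, Cd4 and Cd8a by T cells, Spib and Ly6d by B cells and Cd24a by granulocytes. These are examples only, and the lists were not limited to genes found in dendritic cells alone. In Gr-1lo cells 16 of the 47 rose from marrow to spleen and none fell, with a median log2 FC of 0.72. Of all genes tested 3.84% rose and 0.215% fell in these cells. In Gr-1hi cells 30 rose and 2 fell, with a median of 2.28, beside 14.0% and 1.48% of all genes tested. The background was thus higher in Gr-1hi cells, which holds for the counts of each list below. Both medians stood beside -0.01 and 0.03 over all genes.

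Of the 8 tested genes shared by conventional dendritic cells, all rose to the spleen in Gr-1hi cells and only the integrin gene Itgax did in Gr-1lo cells. The 3 with the highest CPM belong to the MHC class II pathway. Cd74, the invariant chain, rose from 92.0 to 589 CPM in Gr-1hi cells, a log2 FC of 2.68 (SE 0.46, edgeR adjusted p = 0.00688). H2-Aa, a class II chain, rose by 2.57 and Ciita, the class II transactivator, by 3.31 in the same cells. In Gr-1lo cells their log2 FCs were 1.40, 1.68 and 1.45, and none was called. Itgax, which encodes CD11c, rose from 0.866 to 13.8 CPM in Gr-1lo cells (log2 FC 4.0, SE 0.36). Without libraries 5 and 7 the count in Gr-1hi cells was 4 in place of 8. Flt3, the receptor for Flt3 ligand, was at 4.22 CPM in SP Gr-1hi and 1.38 in BM Gr-1hi, but at 3.82 in SP Gr-1lo and 4.88 in BM Gr-1lo.

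Of the 10 tested type 1 genes, 7 rose to the spleen in Gr-1hi cells, among them Irf8, Tlr3 and Naaa, and 3 rose in Gr-1lo cells, namely Cadm1, Itgae and Cd8a. Clec9a, a receptor for dead cells that marks type 1 cells, was not called in either comparison, with log2 FCs of 0.50 (SE 0.28) and 0.96 (SE 0.31). Its mean was 4.57 CPM in SP Gr-1hi, 1.32 in SP Gr-1lo, 3.23 in BM Gr-1hi and 0.677 in BM Gr-1lo, so it did not follow the tissue pattern of Xcr1. The 3 genes of this list with the highest CPM were Cd24a, Wdfy4 and Naaa, and the first 2 were not called in either spleen comparison. Without libraries 5 and 7 the count in Gr-1hi cells was 4 in place of 7.

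Of the 9 tested type 2 genes, Irf4, Cd7 and Cd4 rose and Clec10a fell in Gr-1hi cells, and Cd7, Cd4 and Ltb rose in Gr-1lo cells. Clec10a was not called in Gr-1lo cells. Mgl2 was called in neither comparison, with means of 8.76 CPM in SP Gr-1lo, 11.6 in BM Gr-1lo and at most 0.138 in the Gr-1hi groups. Sirpa and Notch2, with Ltb the 3 genes of the list with the highest CPM, had log2 FCs between -0.18 and 0.25 and were not called. Esam was not tested because of low counts. Of the 10 tested plasmacytoid genes, Spib, Pacsin1, Ly6d and Tlr9 rose and Smim5 fell in Gr-1hi cells, and Spib, Pacsin1 and Ly6d rose in Gr-1lo cells, where the count was 1 without library 8 or library 11. Tcf4, the factor that specifies plasmacytoid cells, was not called in either, with log2 FCs of 0.87 (SE 0.17) and 0.37 (SE 0.16). The 3 genes of this list with the highest CPM were Irf7, Runx2 and Tlr9, and the first 2 did not reach an FC of 2 in either comparison. Klk1 and Cox6a2 were not tested, each at 0.161 CPM or less in each group mean.

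Of the 10 tested genes of mature dendritic cells, 8 rose in Gr-1hi and 6 in Gr-1lo cells, with medians of 3.93 and 2.14. Cd83, a maturation marker, rose from 0.427 to 11.6 CPM in Gr-1hi cells (log2 FC 4.74, SE 0.43) and from 0.190 to 3.30 CPM in Gr-1lo cells (log2 FC 4.13, SE 0.44). Fscn1, which bundles actin in mature dendritic cells, rose by 5.45 (SE 0.71) in Gr-1hi and 3.91 (SE 0.71) in Gr-1lo cells. Of the 3 genes with the highest CPM, Cd40 rose in both subsets, Relb was called in Gr-1lo cells (log2 FC 1.47, against 0.92 and an FC under 2 in Gr-1hi), and Cd80 in neither. The Gr-1lo count was 3 without library 8 or library 12. The chemokine gene Ccl17 had 0 counts in 3 of the 4 groups, and Il12b, which encodes a subunit of IL-12, had 0 in both marrow groups.

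**Figure D4:**
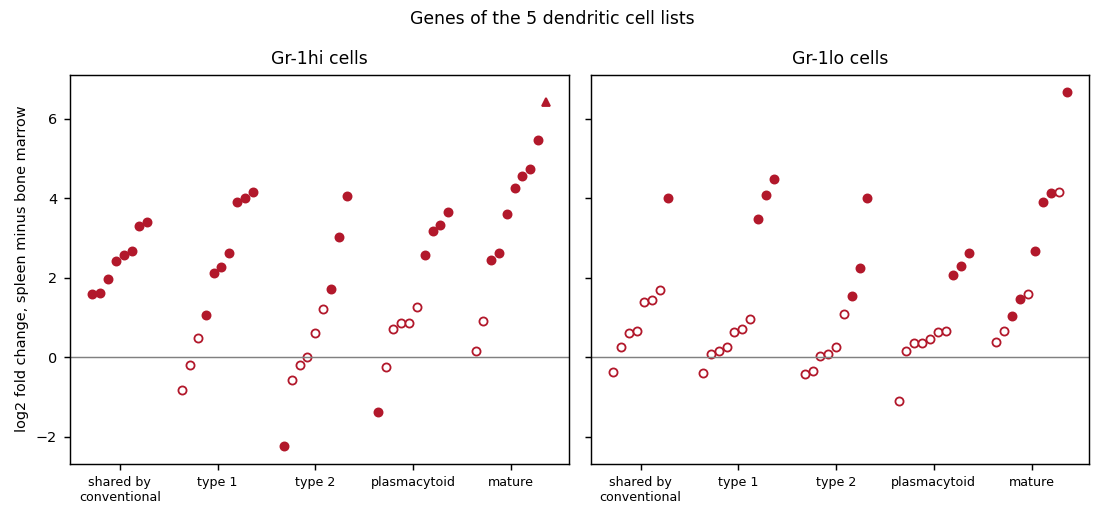
Log2 FC between SP and BM of the 47 tested genes of 5 dendritic cell lists, in Gr-1hi (left) and Gr-1lo (right) cells, ordered by value within each list, with filled symbols for called genes and a triangle for a lower bound. In Gr-1hi cells 30 were called above 0 and 2 below, and in Gr-1lo cells 16 above and none below.

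Between Gr-1hi and Gr-1lo cells the same lists went both ways. In marrow 18 of the 47 were higher and 19 lower in Gr-1hi, and in spleen 20 higher and 11 lower, against 24.2% and 33.1%, and 22.3% and 27.4%, of all genes tested. Irf8 and Tlr9, like Batf3, were lower in Gr-1hi cells of both tissues. The interaction was called for 13 of the 47, 10 of them positive, and for 4 without libraries 5 and 7.

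Most lymphocyte genes were higher in spleen than in marrow, as Dnase1l3, Xcr1 and Ccr7 were. Of 12 B cell genes, 10 were higher in SP Gr-1lo and 11 in SP Gr-1hi than in marrow, beside 3.84% and 14.0% of all genes tested. Their summed level was 807 to 1056 CPM in SP Gr-1hi, 172 to 175 in SP Gr-1lo, 503 to 553 in BM Gr-1hi and 95.7 to 100 in BM Gr-1lo. Cd37, which granulocytes also express, made up most of the marrow sums, and without it (a choice made after its values were seen) the sums were 370 to 550, 68.2 to 86.3, 17.8 to 21.3 and 8.36 to 10.3 CPM. Cd22, the next B cell gene by level, was at 88.6 ± 20.0, 15.1 ± 2.41, 2.23 ± 0.871 and 0.510 ± 0.0542 CPM in the same order (SD, n = 2). Of 10 T cell genes, 10 were higher in SP Gr-1lo and 9 in SP Gr-1hi. Their summed level was 66.0 to 109 CPM in SP Gr-1hi, 22.2 to 33.2 in SP Gr-1lo, 5.94 to 9.72 in BM Gr-1hi and 2.17 to 2.36 in BM Gr-1lo. The most abundant were Lck, at 17.7 ± 6.90 CPM in SP Gr-1hi, and Trac, at 14.2 ± 5.24. No B or T cell gene was at 0 throughout a group. Between the spleen subsets all 12 B cell genes and all 10 T cell genes were higher in Gr-1hi cells (22.3% of all genes tested), as Xcr1 and Ccr7 were, while Dnase1l3 was not called. The cells had been sorted on CD11b and Gr-1, and how many B and T cells passed that gate was not tested here. The part of lymphocyte RNA in the results on the 8 genes was not tested, and in bulk libraries fewer cells of a type and less RNA per cell cannot be told apart.

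Some genes of further cell types were higher in spleen as well. Of 5 tested plasma cell genes 4 rose in SP Gr-1lo and 5 in SP Gr-1hi, of 6 NK cell genes 2 and 5, of 9 genes of splenic macrophages 4 and 3, and of 6 erythroid genes 6 and 5. The shares over all genes tested were 3.84% and 14.0%. The summed level of the macrophage list, in which Slc40a1 and Hmox1 had the highest CPM, was 889 to 1045 CPM in SP Gr-1hi, 207 to 211 in SP Gr-1lo, 580 to 634 in BM Gr-1hi and 144 to 176 in BM Gr-1lo. Plasma cell genes, led by Xbp1 and Jchain, summed to 277 to 377, 308 to 319, 99.9 to 101 and 227 to 249 CPM in that order, with Tnfrsf17 at 0 in BM Gr-1hi. The NK list, led by Gzma and Klrd1, summed to 9.41 to 13.3, 4.66 to 5.61, 1.94 to 2.62 and 0.615 to 1.08 CPM. The erythroid list, led by the globin genes Hba-a1 and Hba-a2, summed to 217 to 731, 166 to 232, 35.7 to 43.8 and 7.64 to 8.24 CPM. Of 5 tested endothelial genes, led by Pecam1 and Stab2, 1 rose in SP Gr-1lo and 0 in SP Gr-1hi. Their sums were 36.1 to 45.5, 25.7 to 28, 26.3 to 31.4 and 25.3 to 39.5 CPM, with Emcn at 0 in both spleen groups. Their part in the results was not tested.

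Granulocyte and monocyte genes followed the Gr-1 sort. All 8 neutrophil genes, led by Ngp and S100a8, were higher in Gr-1hi cells of both tissues (22.3% of all genes tested in SP and 24.2% in BM). They summed to 49785 to 75470 CPM in SP Gr-1hi, 7542 to 8057 in SP Gr-1lo, 100817 to 111168 in BM Gr-1hi and 3095 to 3150 in BM Gr-1lo. Of 8 monocyte genes, led by Ly6c2 and Ccr2, 6 were lower in Gr-1hi cells of each tissue, as Batf3 was (27.4% of all genes tested in SP and 33.1% in BM). Their sums were 1117 to 1472, 5131 to 5550, 1397 to 1812 and 6258 to 6405 CPM in the same order. Between SP and BM Gr-1lo cells, 2 neutrophil genes and 0 monocyte genes were called higher, and between the Gr-1hi groups Retnlg of the neutrophil list was lower in SP. The part of neutrophil and monocyte RNA in the differences between Gr-1hi and Gr-1lo cells was not tested.

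**Figure D5:**
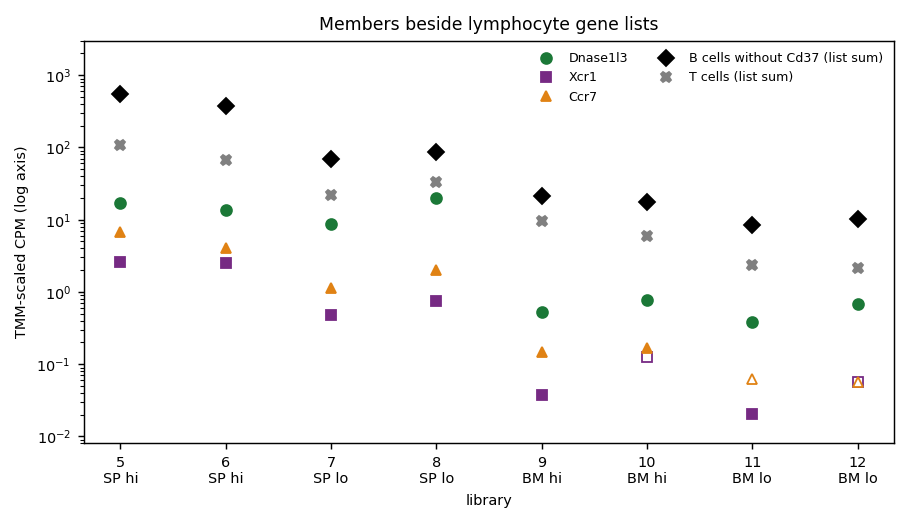
TMM-scaled CPM on a log axis of Dnase1l3, Xcr1 and Ccr7 in the 8 libraries, beside the summed CPM of 11 B cell genes (the list without Cd37) and 10 T cell genes, with open symbols at the level of 3 counts for a count of 0. Both sums were highest in libraries 5 and 6, as Xcr1 and Ccr7 were, while Dnase1l3 was highest in library 8 (20.3 CPM).

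For the 5 genes with at least 1 CPM in at least 2 libraries, the most similar profiles were sought among all genes tested. Likeness was the root mean square (RMS) difference of log2 CPM centred over the 8 libraries, given as a description. For Dnase1l3 they were the immunoglobulin kappa segments Igkv5-39 (RMS 0.33), Igkv8-28 (0.49) and Igkv4-68 (0.49), a family whose members can share reads. Xcr1 was nearest to the T cell receptor gene Trac (0.36), the lambda segment Iglj3 (0.36) and Map3k19 (0.38). Ccr7 was nearest to H2-Eb2 (0.31), Ablim1 (0.32) and Gimap8 (0.39). Batf3 had another set of neighbours, namely Gm6377 (0.26), Il12rb2 (0.31) and Smpdl3b (0.33), and Bcl11a had Miga1 (0.14), Zbtb25 (0.15) and Tasor2 (0.16). Among the 8 genes themselves, the closest pairs were Xcr1 with Ccr7 (0.81), Xcr1 with Dnase1l3 (0.82) and Dnase1l3 with Ccr7 (0.92), and Xcr1 and Batf3 were farther apart at 1.87. All points come from the same 8 libraries, so these values share depth and composition.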

How the data were processed

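RNA of 8 libraries, 2 for each of 4 sorted groups, was sequenced by the authors as paired reads from stranded mRNA libraries. Per the study's methods, reads were checked with FastQC, filtered with Sickle, aligned to GRCm38.p6 with STAR and counted per gene of GENCODE M24 with featureCounts. The deposited table holds raw counts of 54188 genes without normalization, and every column was assigned by its name to a library. The strand setting of the counting was not given in the sources used here.

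The filter on low counts was filterByExpr of edgeR 4.0.16 under R 4.3.3 (minimum count 10, total 15). After TMM scaling, 1 robust quasi-likelihood model with a term per group took in the 8 libraries and left 4 residual degrees of freedom. The Benjamini-Hochberg adjustment ran over 17650 genes, and calls needed an adjusted p no higher than 0.05 with a fold change of at least 2. Each SE was derived from the log2 FC and its F statistic. Where a group held 1 to 3 counts, the ratio of scaled counts is given with an exact 95% interval. Against 0 counts, the ratio to a floor of 3 counts over the group is given, with the counts of the other group taken as exact. TPM used exon lengths of GENCODE M21, which holds 53947 of the 54188 identifiers. The procedure was also run on simulated counts for the SP against BM comparisons only. There the groups had equal means apart from genes changed by 1 fixed size, so the large subset differences of these data were not covered.

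The 8 genes and all lists were chosen with earlier results of these data known. Named besides the 8 genes were the 3 most abundant genes of each dendritic cell list, list genes counted in groups of 5 or fewer, the 3 nearest profiles of each of the 8 genes with at least 1 CPM in at least 2 libraries, the 2 most abundant genes of each list of another cell type, and Ly6g, Itgam, Csf1r, Xist and Ddx3y. Clec9a, Flt3, Esam, Mgl2, Tcf4, Klk1, Cox6a2, Cd83, Fscn1, Ccl17, Il12b, Cd22 and a few other list genes named as examples were chosen after their values were seen. Single values of some list genes are not reported here. Replicates of each group differed by more than counting noise (chi-square per degree of freedom between 18.9 and 66.7), and depth was 33453580 to 68316154 counts.

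Alternatives were RLE and upper-quartile scaling, DESeq2 1.42.0, no filter, limma 3.58.1 on log2(quantile-normalized TPM + 1) for genes whose values summed to at least 10, a fit of the 4 libraries compared, leaving out each library, leaving out libraries 5 and 7, and a rule of adjusted p below 0.01 with a fold change above 8. Levels were also computed as CPM without TMM and as TPM, each as a percent of the gene's sum over the 4 groups. Of these values for the 8 genes, 33 moved by at least the SD of the group and 31 did not. Dnase1l3 in SP Gr-1hi was at 49.0% with TMM and 39.4% without it. The TMM factors were 0.724 to 0.863 in Gr-1hi and 1.26 to 1.30 in Gr-1lo libraries, so CPM levels compared between subsets depend on this scaling.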

Additional observations from a re-analysis of the deposited data

Results flagged for a closer look

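Samples standing apart were not sought, since each group has 2 libraries. The results given here are those in which the difference between SP and BM was itself different between Gr-1hi and Gr-1lo cells, as the interaction of tissue and subset in edgeR's quasi-likelihood test (Benjamini-Hochberg adjusted p of at most 0.05 and a size of at least 1 on the log2 scale). A positive value means a larger rise to the spleen in Gr-1hi cells. Of the 8 genes, Batf3 had 2.24 (SE 0.58, edgeR adjusted p = 0.0353) and Bcl11a 1.87 (SE 0.20, edgeR adjusted p = 0.00222). Batf3 rose in both subsets, and Bcl11a was called in Gr-1hi cells only.

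Among the dendritic cell lists, 10 genes had a positive value. These were Flt3 (1.98), Dpp4 (1.80), Kmo (3.12) and H2-DMb2 (1.29) of the genes shared by conventional dendritic cells, Irf8 (3.02) and Tlr3 (3.28) of type 1, Irf4 (1.94) of type 2, Tlr9 (2.21) of the plasmacytoid list, and Il4i1 (1.97) and Cd40 (2.56) of the mature list. Itgax (-2.41), Clec10a (-1.90) and Ltb (-1.65) had a negative value. The calls in the 5 lists were 1, 0, 1, 1 and 1 in that order when libraries 5 and 7 were left out, in place of 5, 2, 3, 1 and 2, and the stricter rule left 1, 1, 0, 0 and 0. Without those libraries Bcl11a was called and Batf3 was not. Over all genes tested 9.74% were called for the interaction.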

How the results depend on the processing

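No paired analysis was possible because the numbers in the library titles run from 5 to 12 and no 2 groups share one. The counts of called genes among the 8 were 4, 6, 4, 3 and 2 for SP against BM in Gr-1lo, SP against BM in Gr-1hi, Gr-1hi against Gr-1lo in BM, the same in SP, and the interaction. With limma on quantile-normalized TPM they were 2, 3, 1, 1 and 1, where Xcr1, Zbtb46, Cd209a and Siglech were under the minimum sum and not tested. The stricter rule gave 1, 0 and 0 for the last 3. Without libraries 5 and 7 the last 2 were 1 and 1. Leaving out 1 library gave 3 to 4, 5 to 6, 3 to 5, 3 to 4 and 1 to 2.

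Reversed values were all of genes not called. Without 1 library the log2 FC ran from -2.41 to 0.10 for Cd209a in SP against BM Gr-1lo cells, in BM from -4.92 to 2.09 for Zbtb46, -2.21 to 2.94 for Xcr1 and -0.10 to 0.71 for Dnase1l3, and in SP from -0.15 to 0.65 for Siglech and -0.45 to 0.76 for Dnase1l3. For the interaction it ran from -0.58 to 6.43 for Zbtb46, -0.95 to 4.19 for Xcr1 and -0.69 to 0.51 for Dnase1l3. In SP, Dnase1l3 had -0.094 without the filter, and without libraries 5 and 7 Dnase1l3 had -0.62, Siglech -0.37 and the Zbtb46 interaction was -0.092. In limma the interaction was 0.32 for Dnase1l3 and 1.35 for Ccr7. The cause was not tested. Of all member values under the alternatives, 534 kept direction and call, 42 lost the call, 11 gained it and 20 reversed.

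Values in limma are differences of log2(TPM + 1), which shrinks changes at low TPM, so they are not log2 FCs. On that scale Batf3 was under the threshold of 1 between SP and BM Gr-1lo cells (0.999), marrow subsets (-0.95) and spleen subsets (-0.59). So was Bcl11a between SP and BM Gr-1hi cells (0.81), and Ccr7 between marrow subsets was not called (limma adjusted p = 0.261). Zbtb46 gained a call between SP and BM Gr-1hi cells with DESeq2 (adjusted p = 0.0451). Over all genes, the calls for SP against BM were 716 in Gr-1lo cells (1077 without the filter, 347 in limma, 389, 433 and 396 without library 8, 11 or 12, 222 under the stricter rule) and 2727 in Gr-1hi cells (1199 in limma, 1715 without library 5, 1617 without 5 and 7, 624 under the stricter rule). For Gr-1hi against Gr-1lo they were 10109 in BM and 8761 in SP (2946 and 1301 under the stricter rule). The interaction had 1719 (624 in limma, 973, 915, 1032 and 926 without library 7, 8, 9 or 12, 819 without 5 and 7, 103 under the stricter rule). Scaling moved the median log2 FC of all genes from -0.17 with TMM to -0.03 with RLE in BM, and from -0.09 to 0.04 in SP.

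With 2 libraries a group, and at most 40 counts of Zbtb46, 12 of Cd209a and 35 of Siglech in any library, differences of these genes were measured with wide intervals.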
